A study of Bos taurus with 11 samples.

Results

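SAT1 and 7 further genes of polyamine metabolism (ODC1, AMD1, SRM, SMS, OAZ1, OAZ2 and AZIN1) were followed in single bovine blastocysts that lacked GATA3 or CDX2. The members were all transcripts whose RefSeq accession maps to one of these 8 symbols. Of the 8, 7 were listed among the 8576 transcripts of the GATA3 KO table and the same 7 among the 12047 of the CDX2 KO table. OAZ2 was listed in neither and has no values here. The members were chosen by the measured level of SAT1 in GATA3 KO embryos, where its log2 difference from WT control embryos ranked 4 among 4271 transcripts tested. The values of the members in GATA3 KO embryos are therefore given as a description, with neither p-values nor calls, and the members were tested in CDX2 KO embryos.

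The study compared 3 groups of Bos taurus embryos (4 GATA3 KO, 4 CDX2 KO and 3 WT control), collected at day 7 as early blastocysts. BE3 mRNA, which encodes a cytosine base editor, was injected into every embryo at the zygote stage, controls included. The KO embryos also received guide RNAs against GATA3 or CDX2, which direct the editor to make a premature stop codon, and the WT control embryos received none. Each embryo was edited on its own and gave 1 Smart-seq2 library of polyadenylated RNA from the whole blastocyst, in which trophectoderm and inner cells are mixed. Each KO group was deposited with the same 3 WT control embryos in a table normalized on its own, so embryos were compared only within a table and both comparisons share their controls. KO embryos carry the numbers of their columns, 3 to 6 for GATA3 KO and 2 to 5 for CDX2 KO.

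Polyamines (putrescine, spermidine and spermine) are small, positively charged molecules that bind RNA and DNA and are needed for growth and translation. Putrescine is made from ornithine by ODC1, and SRM and SMS then add aminopropyl groups, taken from S-adenosylmethionine after its decarboxylation by AMD1, to give spermidine and spermine. SAT1 acetylates spermidine and spermine, which marks them for export or for oxidation back towards putrescine. The amount of ODC1 protein is set by antizymes such as OAZ1, which bind it and send it for degradation, and by the antizyme inhibitor AZIN1, which resembles ODC1 and draws antizyme away from it. In the mouse, embryos without ornithine decarboxylase are known to die soon after the blastocyst stage.

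Recovered counts per embryo ran from 150057 to 540775 in the GATA3 KO table and from 100731 to 662962 in the CDX2 KO table. The detection floor, set at 3 counts, lay between 4.53 and 29.8 CPM (a count relative to the total of its library), and intervals and floors cover counting error only. The same WT control embryos carried between 1.78 and 1.85 times as many counts in the CDX2 KO table as in the other, over transcripts listed in both, and SAT1 between 1.75 and 1.94 times as many. The GATA3 transcript lay between 71.3 and 87.6 normalized counts in WT control embryos and between 9.85 and 13.1 in GATA3 KO embryos (log2 difference -2.62, lower in 4 of 4 embryos, adjusted p = 7.64e-05 from limma). The CDX2 transcript was near the floor, at 6.88 to 11.1 normalized counts in WT control embryos and 1.66 to 4.66 in CDX2 KO embryos. With GATA3 KO it lay at 4.66 to 9.73 in WT control and 0 to 3.45 in KO embryos. Lower CDX2 values than in all controls were thus not particular to CDX2 KO embryos. Trophectoderm markers, of which 7 of 10 were listed with GATA3 KO, were present in every embryo, with a summed level between 3182 and 7427 normalized counts in WT control and between 3608 and 5175 in GATA3 KO embryos, and of these GATA2 was called lower and TFAP2C higher in the KO embryos (both named after their values were seen). The summed level of primitive endoderm markers (4 of 6 listed) was between 68.7 and 105 in WT control and between 20.3 and 80.99 in GATA3 KO embryos. That of epiblast markers (6 of 8) ran from 138 to 188 and from 76.7 to 211, and that of cumulus cell markers (2 of 6) from 9.33 to 15.8 and from 2.58 to 26.05. The part of these levels in the values of the members was not tested. In whole blastocysts, fewer cells of a type and less RNA per cell cannot be told apart.

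SAT1 (NM_001034333), the acetyltransferase that opens polyamine breakdown, was higher in all 4 GATA3 KO embryos than in any WT control embryo. WT control embryos 1 to 3 had 13.4, 8.65 and 10.9 normalized counts, against 73.8, 43.1, 52.4 and 30.4 in GATA3 KO embryos 3 to 6. The groups did not overlap, and the lowest KO embryo, embryo 6, stood well above the highest control. The mean of the controls was 10.98 ± 2.39 (SD, n = 3) and that of the KO embryos 49.9 ± 18.3 (SD, n = 4), a ratio of 4.55, and the log2 difference was 2.04 (SE 0.32). These values rest on 17, 8 and 7 counts in the controls and on 51, 100, 44 and 37 counts in the KO embryos. Relative to the library total, SAT1 lay between 38.5 and 53.2 CPM in WT control and between 122 and 306 CPM in GATA3 KO embryos. By counting error alone, the interval of GATA3 KO embryo 6 (95% Clopper-Pearson, 85.9 to 168 CPM) overlapped that of WT control embryo 3 (18.8 to 96.1 CPM), while the intervals of the other 3 KO embryos began above those of all controls. Within the KO group the highest embryo had 2.43 times the level of the lowest.

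In CDX2 KO embryos, SAT1 did not pass the test and varied more between embryos than any other member did. The CDX2 KO embryos 2 to 5 had 18.4, 4.66, 101 and 25.8 normalized counts, where WT control embryos 1 to 3 had 20.9, 11.1 and 14.9. Embryo 4 was far above every control, embryo 5 slightly above, embryo 2 within their range and embryo 3 below, with a 21.7-fold span within the group. The value of embryo 3 came from 2 counts in the shallowest library (19.9 CPM, 95% interval 2.40 to 71.7), so a lower level there was not detectable at this depth. That of embryo 4 came from 122 counts (290 CPM, 95% interval 241 to 346). The log2 difference of the groups was 0.54 (SE 0.74, 95% interval -1.06 to 2.14, adjusted p = 0.923 from limma). It was 1.36 with edgeR and 1.34 with DESeq2 (adjusted p = 0.986 and 0.998), while with limma it was -0.17 without CDX2 KO embryo 4 and 1.22 without embryo 3 (adjusted p = 0.935 and 0.997). The difference between the responses of SAT1 to the 2 knockouts was not tested.

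**Figure D1:**
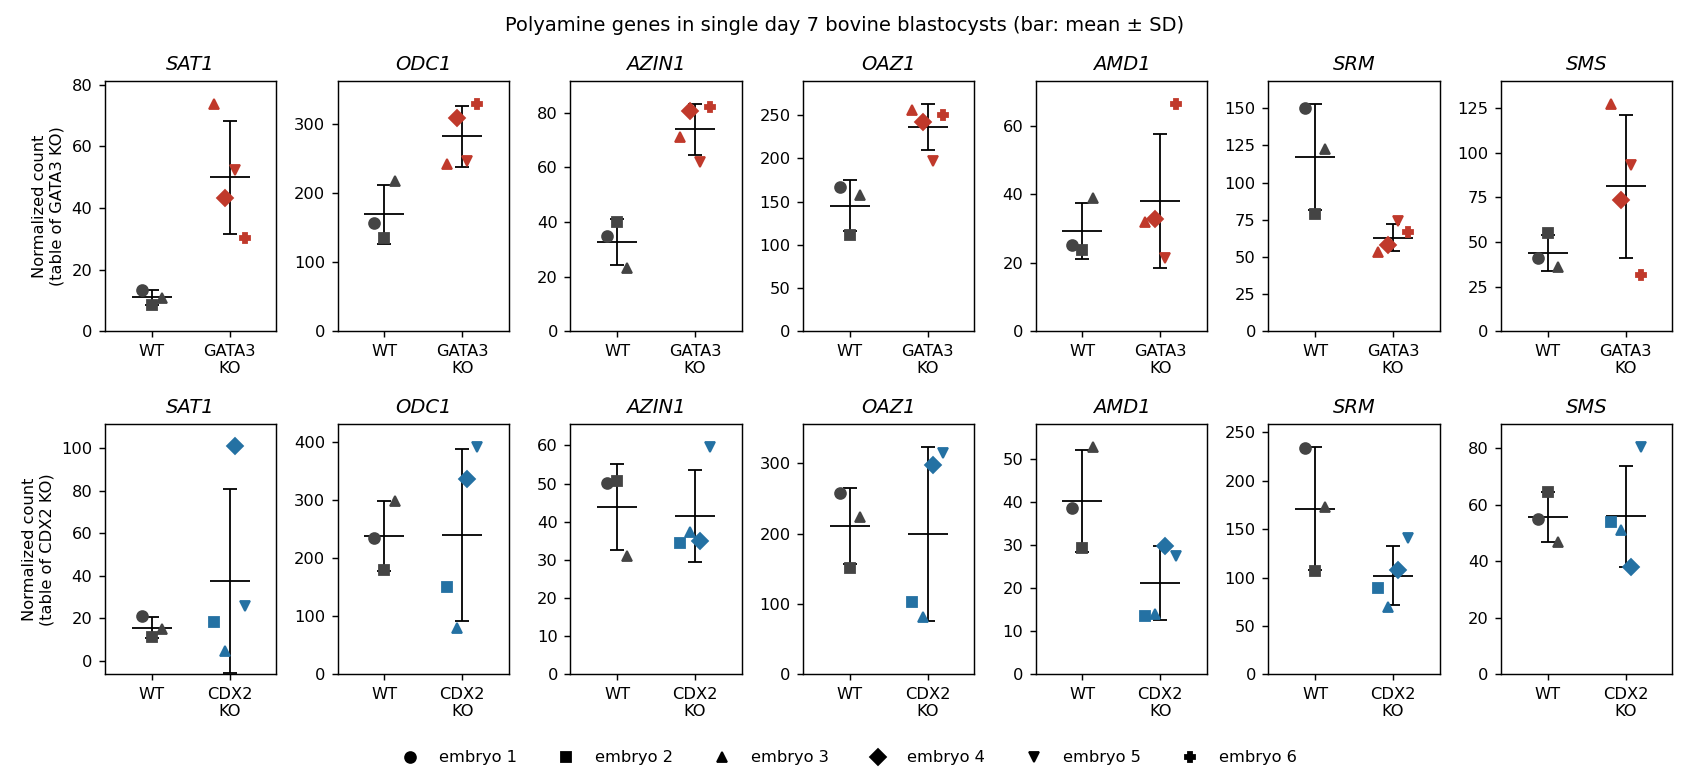
Normalized counts (linear axes, a scale for each panel) of the 7 listed members in each embryo, with the GATA3 KO table in the upper row and the CDX2 KO table in the lower row; points are embryos, marked by number, and bars give mean ± SD. SAT1, ODC1, AZIN1 and OAZ1 lay above every WT control embryo in all 4 GATA3 KO embryos and SRM below, whereas in the CDX2 KO table the groups overlapped for all 7, with embryo 4 at 101 for SAT1.

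ODC1 (NM_174130), which makes putrescine and commits ornithine to the pathway, was also higher in every GATA3 KO embryo. In normalized counts, the levels were 157, 135 and 218 for WT control embryos 1 to 3 but 243, 310, 248 and 330 for GATA3 KO embryos 3 to 6. The groups did not overlap, though WT control embryo 3 came close to the lowest KO embryo. The mean was 170 ± 42.7 (SD, n = 3) against 283 ± 43.8 (SD, n = 4), and the log2 difference was 0.75 (SE 0.24).

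AZIN1 (NM_001082611), the antizyme inhibitor, had the second largest difference among the members in GATA3 KO embryos. From WT control embryos 1 to 3 came 34.7, 40.0 and 23.3 normalized counts, from GATA3 KO embryos 3 to 6 70.9, 80.6, 61.9 and 82.1. All KO embryos were well above all controls, and they lay close together, within 1.33-fold. The mean was 32.7 ± 8.52 (SD, n = 3) against 73.9 ± 9.38 (SD, n = 4), and the log2 difference was 1.18 (SE 0.27).

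OAZ1 (NM_001127243), the antizyme that AZIN1 counters, was higher in GATA3 KO embryos as well. WT control embryos 1 to 3 had 167, 111 and 157 normalized counts, against 256, 242, 197 and 250 in GATA3 KO embryos 3 to 6. The groups did not overlap, and embryo 5 was nearest to the controls. The mean was 145 ± 29.8 (SD, n = 3) against 236 ± 27.0 (SD, n = 4), and the log2 difference was 0.71 (SE 0.23). The enzyme ODC1, its antizyme and the antizyme inhibitor were thus each above the control range in all 4 embryos.

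None of these 3 genes passed the test in CDX2 KO embryos, and ODC1 and OAZ1 divided the group in the same way. ODC1 stood at 235, 180 and 299 normalized counts in WT control embryos 1 to 3, and at 151, 79.2, 337 and 391 in CDX2 KO embryos 2 to 5. OAZ1 stood at 258, 152 and 224 in the same WT control embryos, and at 103, 81.6, 298 and 315 in the CDX2 KO embryos. For both genes CDX2 KO embryos 2 and 3 were below every control and embryos 4 and 5 above every control. Embryos 2 and 3 were also the shallowest libraries of the table, with 218797 and 100731 counts against 421120 and 662962 in embryos 4 and 5, and the part of depth in these values was not tested. Of all 5719 transcripts tested, 2.52% were divided in this way around the controls (a pattern chosen after the values were seen), and none of the 17 other pathway genes tested was. Without regard to the controls, 37.5% of all transcripts tested were lower in both of embryos 2 and 3 than in embryos 4 and 5 and 18.4% were higher, against 5 and 0 of the 7 members and 6 and 4 of the 17 other pathway genes. The log2 difference was -0.22 for ODC1 (SE 0.54, 95% interval -1.39 to 0.94, adjusted p = 0.947 from limma), and it changed sign with quantile normalization. For OAZ1 it was -0.30 (SE 0.53, 95% interval -1.43 to 0.84, adjusted p = 0.936 from limma), and it too changed sign with quantile normalization.

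AZIN1 did not divide the CDX2 KO embryos in this way. The CDX2 KO embryos 2 to 5 had 34.3, 37.3, 34.8 and 59.6 normalized counts, where WT control embryos 1 to 3 had 50.1, 50.6 and 31.0. Embryo 5 was above every control and the other 3 lay within the control range. The log2 difference was -0.08 (SE 0.40, 95% interval -0.95 to 0.78, adjusted p = 0.975 from limma), with a changed sign under quantile normalization and median-ratio rescaling.

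The genes that build the longer polyamines went different ways. AMD1 (NM_173990), which supplies the aminopropyl donor, overlapped between WT control and GATA3 KO embryos. In normalized counts, the levels were 25.3, 23.8 and 38.9 for WT control embryos 1 to 3 but 31.8, 32.7, 21.4 and 66.5 for GATA3 KO embryos 3 to 6. Only embryo 6 was above the controls, and embryo 5 was below them. The log2 difference was 0.28 (SE 0.34), and it was -0.02 without embryo 6.

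AMD1 was, in CDX2 KO embryos, the member furthest below the controls, though short of the test. From WT control embryos 1 to 3 came 38.7, 29.2 and 52.7 normalized counts, from CDX2 KO embryos 2 to 5 13.5, 13.98, 29.9 and 27.4. Embryos 2, 3 and 5 were below every control, and embryo 4 lay just above the lowest. The log2 difference was -0.94 (SE 0.44, 95% interval -1.88 to 0.00), with an unadjusted p of 0.0501 and an adjusted p of 0.900 from limma. It remained negative under every alternative run, from -1.15 to -0.50.

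SRM (NM_001303623), which makes spermidine, was the 1 member below every control in all 4 GATA3 KO embryos. WT control embryos 1 to 3 had 150, 78.9 and 123 normalized counts, against 53.5, 57.7, 73.8 and 66.5 in GATA3 KO embryos 3 to 6. The groups did not overlap, with GATA3 KO embryo 5 and WT control embryo 2 nearest to each other. The mean was 117 ± 35.8 (SD, n = 3) against 62.9 ± 9.07 (SD, n = 4), and the log2 difference was -0.85 (SE 0.27).

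The CDX2 KO embryos had SRM values in the same direction, without passing the test. The CDX2 KO embryos 2 to 5 had 89.5, 69.9, 108 and 141 normalized counts, where WT control embryos 1 to 3 had 234, 107 and 173. Embryos 2 and 3 were below every control, and embryos 4 and 5 were inside the control range. The log2 difference was -0.72 (SE 0.42, 95% interval -1.63 to 0.20, adjusted p = 0.900 from limma). Since the WT control embryos are shared, the 2 SRM differences are not independent, and WT control embryo 1 had the highest value in both tables.

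SMS (NM_001035471), which turns spermidine into spermine, separated a single GATA3 KO embryo from the other 3. In normalized counts, the levels were 41.0, 55.1 and 35.7 for WT control embryos 1 to 3 but 127, 73.2, 92.9 and 31.2 for GATA3 KO embryos 3 to 6. Embryos 3, 4 and 5 were above every control, and embryo 6 was below every control. The mean was 44.0 ± 10.01 (SD, n = 3) against 81.2 ± 40.1 (SD, n = 4), and the log2 difference was 0.73 (SE 0.37). SMS had the widest span of the members within the GATA3 KO group, 4.08-fold.

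In the CDX2 KO table SMS was level between the groups. From WT control embryos 1 to 3 came 55.2, 64.8 and 47.0 normalized counts, from CDX2 KO embryos 2 to 5 53.9, 51.3, 38.1 and 80.5. Embryo 4 was below every control and embryo 5 above. The log2 difference was -0.03 (SE 0.40, 95% interval -0.89 to 0.83, adjusted p = 0.992 from limma), and it changed sign with quantile normalization, median-ratio rescaling, edgeR and DESeq2.

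All 7 listed members passed the filter on low values (a mean of at least 10 normalized counts) in both tables. A transcript was called at a Benjamini-Hochberg adjusted p of at most 0.05 with a fold of at least 1.5 or at most 0.6. In GATA3 KO embryos 2.01% of the 4271 transcripts tested met this rule (1.55% higher and 0.468% lower). Values of KO and WT control embryos did not overlap for 5 of the 7 members, 4 of them higher and 1 lower in KO embryos, against 18.9% of all transcripts tested (11.9% higher and 7.05% lower). The median log2 difference of the members was 0.73, with 6 of 7 positive, against a median of 0.11 and 57.2% positive over all transcripts tested. Quantile normalization moved the median of all transcripts to 0.00, and SAT1 was then at 1.93. Without WT control embryo 2 or GATA3 KO embryo 3, as with a covariate for the presence of Y-linked counts, GATA3 was the only transcript called, in place of 86. The number called was 304 without WT control embryo 1, 20 without WT control embryo 3, and 25, 45 and 187 without GATA3 KO embryos 4, 5 and 6. As this contrast chose the set, the counts of members describe them and support nothing.

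In CDX2 KO embryos 0 of the 7 members were called, where limma called 0.00% of the 5719 transcripts tested. By unadjusted p under 0.05, 187 of them (3.27%) passed, while edgeR called 1 and DESeq2 called 9. For 0 of the 7 members were the groups without overlap, against 5.88% of all transcripts tested. The median log2 difference of the members was -0.22, against -0.15 over all transcripts tested, and rescaling moved the latter to -0.04 (quantile normalization) or -0.03 (median ratios). Cumulus cell markers, of which 5 of 6 were listed, did not overlap in this comparison, with a summed level between 22.9 and 32.1 normalized counts in WT control and between 41.9 and 58.9 in CDX2 KO embryos. Trophectoderm markers (9 of 10 listed) summed to between 4472 and 11496 in WT control and between 2197 and 7443 in CDX2 KO embryos, epiblast markers (6 of 8) to 171 to 251 and 144 to 284, and primitive endoderm markers (5 of 6) to 108 to 139 and 50.6 to 172. Their part in the values of the members was not tested.

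**Figure D2:**
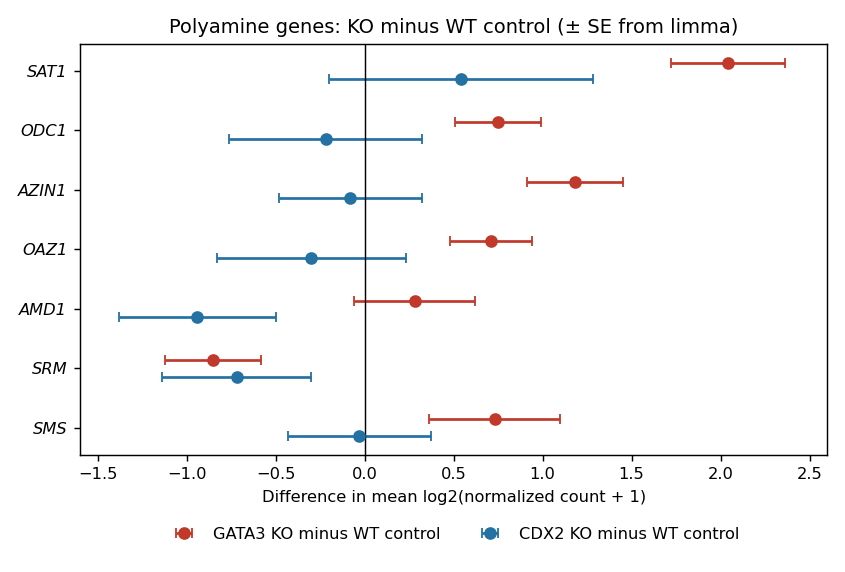
Differences in mean log2(normalized count + 1) between KO and WT control embryos for the 7 members, GATA3 KO in red and CDX2 KO in blue, with bars of ± SE from limma. In GATA3 KO embryos SAT1 (2.04) and AZIN1 (1.18) lay furthest above 0 and SRM (-0.85) below it, and in CDX2 KO embryos the sign of ODC1, OAZ1, AZIN1 and SMS depended on the scaling.

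Ratios of 2 members within the same embryo do not depend on the size factor, and 6 were compared. They are log2 ratios of recovered counts with 0.5 added, and since transcripts differ in length only their differences between embryos are read. The ratio of SAT1 to SMS, the breakdown gene over the spermine gene, was 0.333, 0.165 and 0.319 in WT control embryos 1 to 3, against 0.582, 0.589, 0.567 and 0.974 in GATA3 KO embryos 3 to 6. It was higher in all 4 KO embryos, by 1.34 on the log2 scale. The ratio of SAT1 to ODC1, breakdown over the first step of synthesis, was 0.0877, 0.0677 and 0.0534 in WT control embryos and 0.306, 0.140, 0.213 and 0.0932 in GATA3 KO embryos, by 1.32 higher on the log2 scale. These groups did not overlap either, but embryo 6 was close to WT control embryo 1.

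ODC1 and its antizyme differed in their ratio by less than the spread between embryos in both tables. The ratio of ODC1 to OAZ1 was 0.939, 1.21 and 1.38 in WT control embryos 1 to 3, against 0.949, 1.28, 1.26 and 1.32 in GATA3 KO embryos 3 to 6, a log2 difference of 0.04. The 2 transcripts were higher together in GATA3 KO embryos, and low together in the 2 shallowest CDX2 KO libraries, and their ratio ran from 0.972 to 1.46 in CDX2 KO embryos. The difference between CDX2 KO and WT control embryos was 0.07 (p = 0.714 by a two-sided exact permutation test with 35 splits, 0.829 adjusted over the 6 ratios). AZIN1 to OAZ1 differed by 0.47 in GATA3 KO embryos and by 0.22 in CDX2 KO embryos, with overlap in both.

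The ratio of SMS to SRM, the spermine gene over the spermidine gene, was 0.276, 0.701 and 0.296 in WT control embryos 1 to 3, against 2.36, 1.27, 1.26 and 0.472 in GATA3 KO embryos 3 to 6. GATA3 KO embryos 3, 4 and 5 were above every control, and embryo 6 was within the control range. The ratio of AMD1 to ODC1 was alike in the WT control embryos, at 0.163, 0.179 and 0.181, and was 0.134, 0.106, 0.0887 and 0.202 in GATA3 KO embryos, lower in embryos 3, 4 and 5 and higher in embryo 6. In CDX2 KO embryos 2 to 5 the same ratio was 0.0931, 0.188, 0.0898 and 0.0706, lower in 3 of the 4. That difference, -0.72 on the log2 scale, did not pass the test (exact permutation p = 0.143, adjusted 0.457).

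Of the other ratios in CDX2 KO embryos, SAT1 to ODC1 differed by 0.80 and SMS to SRM by 0.69 (exact permutation p = 0.229 for each, adjusted 0.457). SAT1 to SMS differed by 0.61 and AZIN1 to OAZ1 by 0.22 (adjusted exact permutation p = 0.829 for each). CDX2 KO embryo 4 had a SAT1 to SMS ratio of 2.63, above that of any other embryo in this table.

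**Figure D3:**
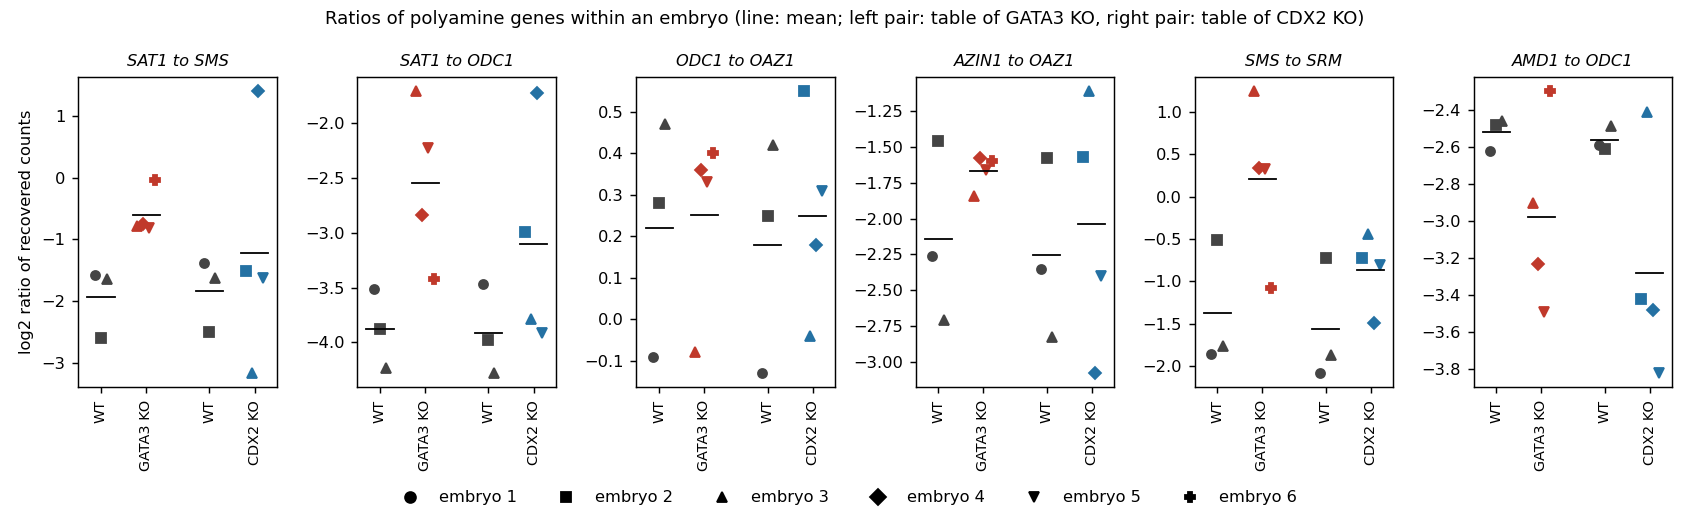
The 6 within-embryo log2 ratios of recovered counts, each with the GATA3 KO table at the left and the CDX2 KO table at the right; points are embryos, marked by number, lines are group means, and the axes differ between panels and do not start at 0. SAT1 to SMS and SAT1 to ODC1 were above the WT control range in all 4 GATA3 KO embryos, while ODC1 to OAZ1 overlapped in both tables.

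SAT1 and SMS both lie on the X chromosome, with 5 protein-coding genes between them in the ARS-UCD2.0 annotation, and the embryos differed in X- and Y-linked transcripts. All WT control embryos had counts of Y-linked genes, at least 29, and so did GATA3 KO embryo 6 (68), whereas GATA3 KO embryos 3, 4 and 5 had 0, 0 and 2. The median of 136 other X-linked transcripts lay 1.0, 0.94 and 1.06 above the WT control mean (log2) in embryos 3, 4 and 5 and -0.46 from it in embryo 6. SMS lay at 1.54, 0.75, 1.09 and -0.46 in embryos 3 to 6, above this median in embryo 3, below it in embryo 4 and close to it in embryos 5 and 6.

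SAT1 lay above the X-linked median in each of the 4 embryos. As SAT1 was chosen for its level in these same embryos, this describes it and supports nothing. Its log2 value was 2.66, 1.90 and 2.18 above the WT control mean in embryos 3, 4 and 5. It was 1.41 above in embryo 6, where SMS and the median X-linked transcript were below the controls. A covariate for Y-linked counts, present or not, leaves embryo 6 alone against the controls, and gave a log2 difference of 1.41 for SAT1 and -0.46 for SMS. In embryos 3, 4 and 5 the knockout and the absence of Y-linked counts cannot be told apart.

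For the autosomal members, embryo 6 against the controls gave values near those of the whole group for AZIN1 (1.34 on the log2 scale against the WT control mean), ODC1 (0.98), OAZ1 (0.80) and SRM (-0.76). AMD1 was the exception, at 1.19 in embryo 6 and between -0.40 and 0.19 in the other 3.

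The 155 Y-linked counts of embryo 5 set it apart in the CDX2 KO table, as none were found in embryos 2, 3 and 4. The median of 162 other X-linked transcripts was 0.57, 0.21, 1.11 and 0.14 from the WT control mean in CDX2 KO embryos 2 to 5. SAT1 was at 0.26, -1.51, 2.66 and 0.73 in these embryos, and SMS at -0.03, -0.10, -0.52 and 0.54. Embryo 4 had the highest X-linked median and the highest SAT1 of the CDX2 KO embryos, and at the same time the lowest SMS.

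**Figure D4:**
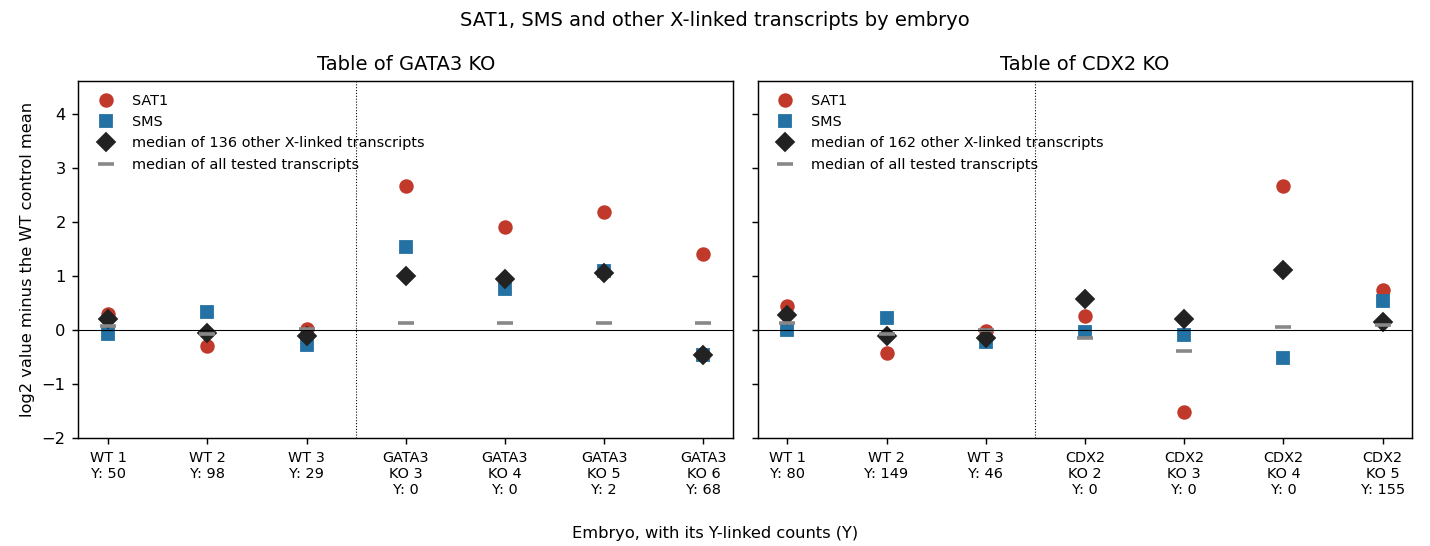
log2 values of SAT1, SMS, the median of the other X-linked transcripts and the median of all tested transcripts, each minus its WT control mean, by embryo, with the Y-linked counts under each embryo's name. In GATA3 KO embryo 6, which had 68 Y-linked counts, SMS and the X-linked median were both at -0.46 while SAT1 was at 1.41.

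A list of 38 further genes in 8 groups covered the rest of polyamine metabolism, and none of those that could be tested passed in either table. For GATA3 KO, 24 were listed and 11 had a sufficient mean, of which 9 had a positive and 2 a negative log2 difference, with a median of 0.35 against 0.11 over all transcripts tested. For CDX2 KO, 28 were listed and 17 tested, of which 6 had a positive and 11 a negative difference, with a median of -0.18 against -0.15.

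Among the genes that recycle the aminopropyl donor's by-product to methionine, APIP had the highest mean in the GATA3 KO table. It stood at 16.6, 11.9 and 18.7 normalized counts in WT control embryos 1 to 3, and at 30.4, 22.8, 29.8 and 34.5 in GATA3 KO embryos 3 to 6. All KO embryos were above all controls, but the log2 difference of 0.87 (SE 0.30) did not pass (adjusted p = 0.105 from limma). NFE2L2, a transcription factor of the oxidative stress response and a known activator of SAT1, showed a similar picture. WT control embryos 1 to 3 had 37.9, 31.3 and 17.1 normalized counts, against 57.9, 46.5, 52.4 and 41.9 in GATA3 KO embryos 3 to 6, without overlap (log2 difference 0.83, SE 0.30, adjusted p = 0.119 from limma). Groups without overlap were common in this comparison, at 18.9% of all transcripts tested, with 11.9% higher in KO embryos.

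Of the genes that supply ornithine, OAT differed by 0.57 (SE 0.26, adjusted p = 0.197 from limma), with 3 of 4 GATA3 KO embryos above all controls. EIF5A, the translation factor that carries hypusine, a residue made from spermidine, differed by 0.35 (SE 0.27, adjusted p = 0.470 from limma). AHCY, which clears the product of methylation reactions, differed by 0.01 (adjusted p = 0.982), and SLC3A2, a subunit of amino acid transporters, by -0.18 (adjusted p = 0.727, both from limma).

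PAOX, the oxidase that acts on the products of SAT1, was too low in the GATA3 KO table for the test across transcripts, as were SAT2 and SMOX. It stood at 10.3, 17.3 and 15.5 normalized counts in WT control embryos 1 to 3, and at 0, 8.62, 9.53 and 5.75 in GATA3 KO embryos 3 to 6. All 4 KO embryos were below all controls, from 0, 20, 8 and 7 counts, while SAT1 in the same embryos was above them. PAOX was not alone in this. DOHH, of the hypusination group and also too low for the test, lay at 3.16 to 7.77 in WT control and 0 to 3.02 in GATA3 KO embryos. Of the transcripts with a sufficient mean, 7.05% were lower in KO embryos without overlap. The difference of PAOX was not past the threshold (p = 0.114 by exact permutation, two-sided, where 0.0286 is the smallest p that 35 splits allow).

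The genes of highest mean in these groups had log2 differences of -0.18 (PAOX), -0.30 (EIF5A), -0.39 (MRI1, of methionine salvage), 0.06 (AHCY), -0.63 (OAT), -0.78 (SLC3A2) and -0.18 (NFE2L2) in CDX2 KO embryos, with adjusted p-values from limma between 0.900 and 0.986. The lowest of the list was ARG2, which makes ornithine from arginine and is named here after its values were seen, at -1.26 (SE 0.53, 95% interval -2.40 to -0.12, adjusted p = 0.900 from limma). It had 40.6, 37.1 and 49.3 normalized counts in WT control embryos 1 to 3, against 7.35, 11.7, 21.6 and 43.0 in CDX2 KO embryos 2 to 5, so that 3 of the 4 were below all controls. AZIN2, a second antizyme inhibitor listed only in the CDX2 KO table, gave 2, 2 and 0 counts in WT control and 10, 3, 4 and 11 counts in CDX2 KO embryos. The groups did not overlap, at levels near the floor of 3 counts (p = 0.0286 by exact permutation, two-sided, which is the smallest possible, and 0.0572 after adjustment over the 2 genes tested in this way). The remaining low pathway genes were not tested so, and the adjustment does not cover them.

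**Figure D5:**
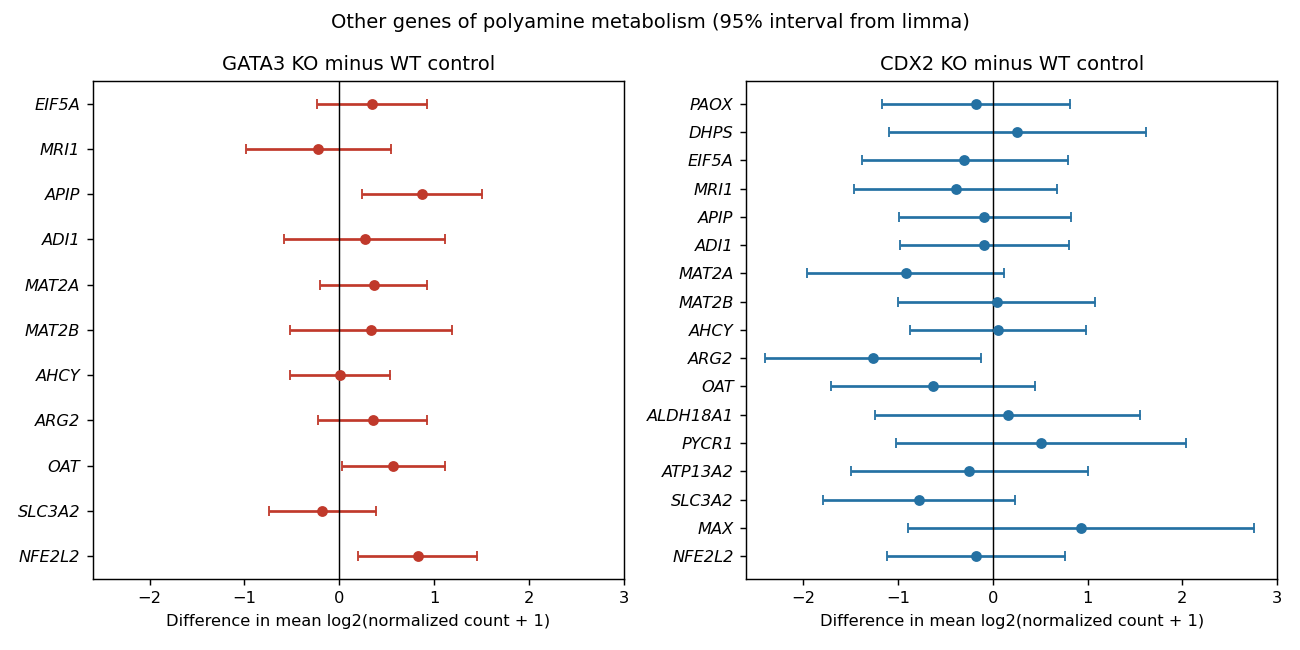
Differences in mean log2(normalized count + 1) between KO and WT control embryos for the other genes of polyamine metabolism with a sufficient mean, 11 in the GATA3 KO table (left) and 17 in the CDX2 KO table (right), with 95% intervals from limma. APIP (0.87) and NFE2L2 (0.83) lay highest at the left and ARG2 (-1.26) lowest at the right, and none passed after adjustment over all transcripts.

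The transcripts whose levels followed SAT1 most closely differed between the tables. Over the 7 embryos of the GATA3 KO table, Pearson's r with SAT1 (log2 values, 4270 transcripts) was highest for CENPS (0.994), C7H5orf15 (0.992), RAB6A (0.989), ACAT1 (0.982) and YTHDF3 (0.981). Each of these was above the controls in all 4 KO embryos, as with RAB6A at 14.05 to 22.1 normalized counts in WT control and 34.5 to 65.1 in GATA3 KO embryos. That largely follows from their choice by likeness to SAT1, whose groups did not overlap. Of all transcripts tested, 11.9% were higher in GATA3 KO embryos without overlap. Of the members, OAZ1 had an r of 0.862 with SAT1 (rank 230), AZIN1 0.814 (rank 372), SMS 0.719, ODC1 0.712, AMD1 0.0747 and SRM -0.744. In the CDX2 KO table r was highest for TMSB4X (0.955), TSPAN31 (0.949), TSPAN6 (0.947), CD48 (0.946) and RPL10 (0.944), of which TMSB4X, TSPAN6 and RPL10 are X-linked in the ARS-UCD2.0 annotation. There ODC1 had an r of 0.753, OAZ1 of 0.735 and SMS of -0.352. These are descriptions over 7 embryos that share a group structure and a size factor each, and the correlations carry no test.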

How the data were processed

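Single blastocysts were profiled by Smart-seq2. Per the study's methods and the submitters' processing notes, the authors used Trimmomatic for trimming, HISAT2 for mapping (genome ARS-UCD1.2), featureCounts for counting and DESeq2 for differential expression. By its values, the deposited signal of an embryo is its count over a size factor that holds within its table; the tool that gave these factors is not given in the sources used here. The deposited log2 fold changes with their standard errors, the deposited Wald score and the deposited p-values and means over embryos are the authors' own comparison and were not used. The labels and the methods differ in the number of PCR cycles.

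Counts were recovered from the step of each column (100% of values whole within 0.01). Symbols came from a RefSeq gene list (assembly ARS-UCD2.0, 98.6% of accessions matched), used for names, chromosomes and gene order. Transcripts with a mean of at least 10 were tested within a table by limma 3.58.1 in R 4.3.3, on log2(normalized count + 1) with a prior that follows the mean (trend), and Benjamini-Hochberg adjustment over all of them. Fold changes are on that scale, which understates changes of low genes. Ratios were tested by exact permutation (scipy 1.17.1), as were PAOX with GATA3 KO and AZIN2 with CDX2 KO. The other pathway genes below the filter were not tested in this way. The test set out for raw counts, edgeR, was run on recovered counts as an alternative. The code was tested on simulated data.

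The members and lists were chosen with earlier results of these data known. The genes named are the members, GATA3 and CDX2, the gene of highest mean in each pathway group, and the 5 transcripts nearest to SAT1 by Pearson's r in each table. GATA2, TFAP2C, ARG2 and DOHH were added after their values were seen, and SAT2 and SMOX are named as too low for the test. The alternatives tried were pseudocounts of 0.1 and 5, no filter or a mean of at least 100, quantile normalization, median-ratio rescaling, no trend, other fold thresholds, edgeR 4.0.16, DESeq2 1.42.0, a covariate for Y-linked counts (above 3), and leaving out each embryo. Columns of WT control embryos match the labels by number, those of KO embryos by group only.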

Additional observations from a re-analysis of the deposited data

Results flagged for a closer look

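AZIN1 in CDX2 KO embryos had an embryo far from the others. Embryo 5 was at 59.6 normalized counts, where embryos 2 to 4 lay between 34.3 and 37.3. The gap was 0.883 of the range of the group, above Dixon's 95% value for 4 samples. In all, 14 sets of 4 KO embryos were examined, in which 0.7 such cases arise by chance. Embryo 5 was the CDX2 KO embryo with Y-linked counts (155), and the part of this difference in its AZIN1 value was not tested.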

How the results depend on the processing

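No paired analysis was possible because the columns of the KO embryos do not carry the replicate numbers of the labels. The number of transcripts called in GATA3 KO embryos, 86, was 145 with a pseudocount of 5, 172 with no filter, 37 with a mean of at least 100, 16 with no trend, 158 with DESeq2 and 1 with the Y-linked covariate. It ranged from 1 (without WT control embryo 2 or GATA3 KO embryo 3) to 304 (without WT control embryo 1) when an embryo was left out. In CDX2 KO embryos the count of 0 became 1 with a pseudocount of 5, a mean of at least 100, median-ratio rescaling or edgeR, 2 with no filter or quantile normalization, and 9 with DESeq2, and ranged from 0 to 1 when an embryo was left out (1 without WT control embryo 2 or 3 or CDX2 KO embryo 3), with no member among these calls. None of the other pathway genes listed, 24 with GATA3 KO and 28 with CDX2 KO of the 38, was called under any setting run. In GATA3 KO embryos the Y-linked covariate moved the log2 difference of SAT1 to 1.41 and of AMD1 to 1.19 and reversed that of SMS to -0.46. There the differences of ODC1, OAZ1, AZIN1 and SRM kept their direction under every setting run, and AMD1 ranged from -0.02 to 0.51 when an embryo was left out. In CDX2 KO embryos, where the members were not called under the main test, signs depended on the settings. ODC1 was at 0.11 with quantile normalization, 0.06 with edgeR, 0.07 with DESeq2 and 0.74 with the covariate. OAZ1 was at 0.04 with quantile normalization and 0.61 with the covariate. AZIN1 was at 0.06 with quantile normalization, 0.05 with median-ratio rescaling, 0.01 with edgeR, 0.03 with DESeq2 and 0.47 with the covariate. SMS was at 0.19, 0.10, 0.10, 0.12 and 0.54 under the same 5 settings. With an embryo left out, the ranges were -0.17 to 1.22 (SAT1), -0.55 to 0.22 (ODC1), -0.60 to 0.05 (OAZ1), -0.31 to 0.03 (AZIN1) and -0.22 to 0.13 (SMS), and for log2 ratios -0.27 to 1.25 (SAT1 to SMS), -0.08 to 0.19 (ODC1 to OAZ1) and -0.09 to 0.56 (AZIN1 to OAZ1). The cause of these changes was not tested. SAT1 rested on 7 to 17 counts in the WT control embryos of the GATA3 KO table, which limits the precision of its ratio. Values under 3 counts lie below the detection floor set here.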
